A study of Mus musculus with 4 samples.

Results

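The sub-cluster that the deposited annotation labels Orexin+ Neurons was a small group of hypothalamic neurons that expressed the histamine-synthesis gene Hdc in every nucleus and the orexin peptide gene Hcrt at no more than background. Its members were the nuclei of the main cluster Neurons_1 that carry this sub-cluster label, 227 of 56386 annotated nuclei (0.403%) and 0.635% of the 35756 nuclei of Neurons_1. Hcrtr2, which encodes the orexin receptor 2, was high in these nuclei, whereas the genes that define neurons making orexin were lower than in the other neurons or at 0. The nuclei are therefore called here the sub-cluster labelled Orexin+, or the Hdc-high sub-cluster.

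Single-nucleus RNA sequencing was performed on snap-frozen hypothalamus of adult male mice in 4 libraries, 2 wild type (WT) and 2 TRα1+m. TRα1+m mice are heterozygous for a point mutation in thyroid hormone receptor α1 that lowers its response to the hormone, and both genotypes were on a C57/BL6NCr background without treatment. Each library holds nuclei pooled from 3 mice of a genotype, and each of the 2 experimental repeats gave a library of either genotype. The pool is the unit of replication (n = 2 per genotype), and differences between the mice within it cannot be seen. No gene is deleted in the mutant, so the amount of Thra transcript is no test of the labels.

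Orexin neurons lie in the lateral hypothalamus and excite arousal systems of the brain through the receptors Hcrtr1 and Hcrtr2. Among their targets are the histamine neurons of the tuberomammillary nucleus in the posterior hypothalamus, which carry Hcrtr2. These neurons make histamine from histidine with histidine decarboxylase (Hdc), load it into vesicles with the monoamine transporter VMAT2 (Slc18a2), degrade its methylated product with monoamine oxidase B (Maob), sense it through the autoreceptor Hrh3 and also contain GABA-synthesizing enzymes.

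In WT, 36 nuclei of the sub-cluster came from repeat 1 and 80 from repeat 2, and TRα1+m gave 61 and 50. This was 0.376% and 0.914% of Neurons_1 nuclei in WT, and 0.574% and 0.733% in TRα1+m. The mutant shares lay between the WT shares, and the means did not separate (0.645% ± 0.380 in WT against 0.654% ± 0.112 in TRα1+m, SD, n = 2, two-sided exact permutation p = 1), in a design whose smallest possible p is 0.333. The summed unique molecular identifiers (UMIs) of the members, on which the values below rest, numbered 286561 and 703670 in WT and 430021 and 432376 in TRα1+m. A member nucleus held a median of 7387 UMIs and 3225 genes, against 4367 UMIs and 2322 genes in the other nuclei of Neurons_1, and this greater depth held in each library. No barcode of a member was found among the members of another library. Values are given as CPM, the counts of a gene scaled to a common total of summed UMIs in each library, in the order WT repeat 1, WT repeat 2, TRα1+m repeat 1 and TRα1+m repeat 2, unless stated otherwise.

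Hdc set these nuclei apart from all other neurons. It was at 974, 873, 1128 and 923 CPM in the sub-cluster, against 5.02 ± 0.921 CPM in the other Neurons_1 nuclei (SD, n = 4 libraries), 194 times as much. The 4 libraries were close together, and the next highest sub-cluster of Neurons_1, the one labelled MCH Neurons, reached 12.1 CPM. An Hdc UMI was present in 227 of 227 members (100%, exact 95% interval 98.4 to 100), in 2.08% of the other neurons and in 1.56% of oligodendrocytes, which should lack it and had a median of 1605 UMIs. With every nucleus thinned to 900 UMIs the shares were 64.8% of members, 0.565% of GABA Neurons and 0.978% of oligodendrocytes. At least 5 Hdc UMIs were found in 174 members and in 11 other annotated nuclei, of which 10 were in GABA Neurons and 1 in the unnamed sub-cluster 11. Since the annotation was made from the expression of these same nuclei, their levels against other nuclei are a description and were not tested.

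The promoters of Hdc and Hcrtr2 are shown, since these genes set the sub-cluster apart. They were taken from RefSeq (build GRCm38.p6) and run 5′ to 3′ on the strand of the gene. Each spans 250 bases before to 50 bases after the start that RefSeq lists. In capitals, where it occurs, is the motif AGGTCA (or TGACCT on the other strand). This short motif is only a part of a thyroid hormone receptor binding site, and binding was not tested. Hdc (chr2:126593667-126619299, minus strand) has its promoter at chr2:126618629-126618928, and Hcrtr2 (chr9:76225880-76323856, minus strand) at chr9:76323574-76323873. The gene spans are those of the GENCODE annotation, whose starts differ from the RefSeq starts, and the Hdc window lies inside the GENCODE span of Hdc.
Hdc: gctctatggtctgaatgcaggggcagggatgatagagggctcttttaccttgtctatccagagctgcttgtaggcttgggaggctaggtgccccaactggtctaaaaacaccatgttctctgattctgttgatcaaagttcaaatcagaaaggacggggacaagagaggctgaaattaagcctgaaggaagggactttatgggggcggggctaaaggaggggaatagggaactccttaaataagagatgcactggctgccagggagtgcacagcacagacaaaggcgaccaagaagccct
Hcrtr2: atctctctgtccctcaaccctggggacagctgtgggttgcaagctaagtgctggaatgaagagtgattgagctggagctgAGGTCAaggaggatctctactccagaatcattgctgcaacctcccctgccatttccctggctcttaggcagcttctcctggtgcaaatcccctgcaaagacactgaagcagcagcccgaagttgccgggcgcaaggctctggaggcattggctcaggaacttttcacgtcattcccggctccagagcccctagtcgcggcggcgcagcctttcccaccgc
The motif occurred once in the Hcrtr2 window and not in the Hdc window, and 16.3% of 32851 promoters of this length held it. Of the 20 leading genes described further on, 17 had an entry, and 5 of their 19 promoters (26.3%) held the motif.

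The listed histaminergic neuron genes were high in the sub-cluster as a group. The list was chosen with earlier results of these data known, so its count is a description. Of its 9 genes, 7 were higher than in the other neurons in all 4 libraries. Of all 27537 genes with a UMI 8.45% were, and of genes with at least 10 CPM in the sub-cluster 20.9%. Among the 9 listed genes, 8 had at least 10 CPM there. Slc18a2 was at 391, 739, 326 and 594 CPM, against a mean of 24.6 in the other neurons. Maob was at 359, 351, 267 and 342 CPM against 10.7, and the autoreceptor gene Hrh3 at 52.3, 62.5, 39.5 and 43.9 CPM against 12.7. Both repeats of either genotype were above every library of the other neurons for these 3 genes, and Slc18a2 was higher in repeat 2 than in repeat 1 in both genotypes.

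Wif1, which encodes a secreted Wnt inhibitor, was at 230, 291, 242 and 389 CPM against 2.02 in the other neurons. Prph, which encodes the intermediate filament protein peripherin, was at 105, 296, 83.7 and 204 CPM against 1.84. Prph separated the repeats rather than the genotypes, with both values of repeat 2 above both of repeat 1. Among the other members of the list, the peptide gene Gal was lower than in the other neurons in every library (26.8 ± 7.53 against 127.6 CPM), and Ada, which encodes adenosine deaminase, rested on 3 UMIs in all.

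Single nuclei carried these genes together. A UMI of at least 5 of the 9 genes was found in 184 members (81.1%), from 63.9% of nuclei in TRα1+m repeat 1 to 91.3% in WT repeat 2, and 208 members had at least 4 of them. Elsewhere 95 annotated nuclei had at least 4, all of them neurons, with 54 in GABA Neurons. Hdc, Hcrtr2 and Slc18a2 were detected in the same nucleus in 191 members and in 38 other nuclei.

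**Figure D1:**
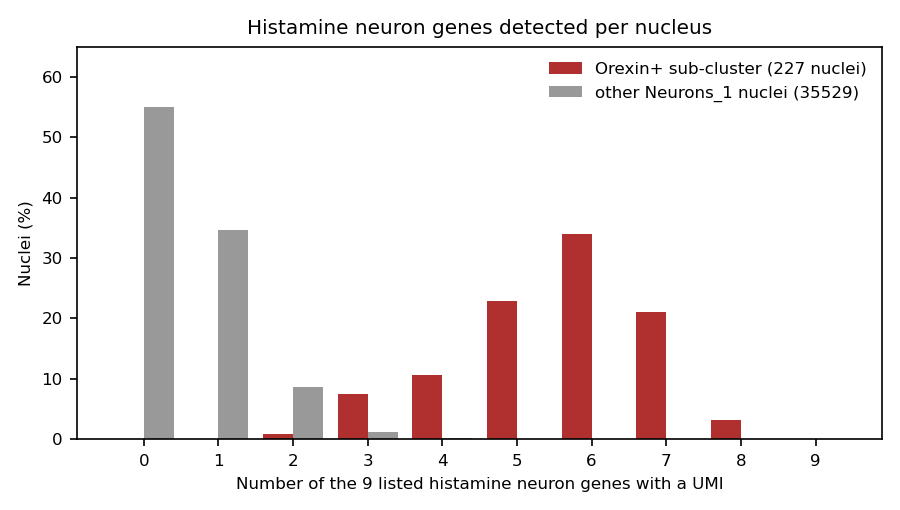
Percentage of nuclei (vertical axis) by the number of the 9 listed histamine neuron genes with at least 1 UMI (horizontal axis), for the 227 nuclei of the sub-cluster labelled Orexin+ and the 35529 other Neurons_1 nuclei. The sub-cluster peaked at 6 genes (33.9% of its nuclei) and none of it had fewer than 2, while most other neurons had 0 or 1.

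The genes of the orexin system were split. Hcrtr2 was at 775, 689, 595 and 671 CPM, against 47.1 ± 3.54 in the other neurons, and the next sub-cluster of Neurons_1, POMC/CART Neurons, had 139 CPM. Its UMIs were found in 201 members (88.5%), in 11.5% of GABA Neurons and in 0.945% of oligodendrocytes. Hcrtr1, the gene of the other orexin receptor, had 0 UMIs in the sub-cluster in every library, where a count of 0 allows up to 10.5, 4.26, 6.98 and 6.94 CPM. These limits and the intervals on shares cover counting error only.

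Hcrt itself was at 101, 54.0, 88.4 and 34.7 CPM in the sub-cluster, below the other neurons in all 4 libraries (mean 234 CPM). Its UMIs were found in 38.3% of members (median 7387 UMIs), in 35.8% of GABA Neurons (median 4180 UMIs) and in 34.5% of oligodendrocytes (median 1605 UMIs), so the share in the sub-cluster is read as background. After thinning to 900 UMIs the shares were 4.85%, 10.7% and 22.6%. Nuclei with at least 20 Hcrt UMIs numbered 172 in the series, and 0 of them were members, which allows a share of up to 1.32% of the 227, whereas 113 were in Glutamatergic Neurons_2. All 6 genes of the orexin neuron list were lower than in the other neurons in all 4 libraries, where 33.5% of all genes were. Lhx9, a transcription factor of orexin neurons, had 0 UMIs, and the co-transmitter peptide gene Pdyn had 3.

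**Figure D2:**
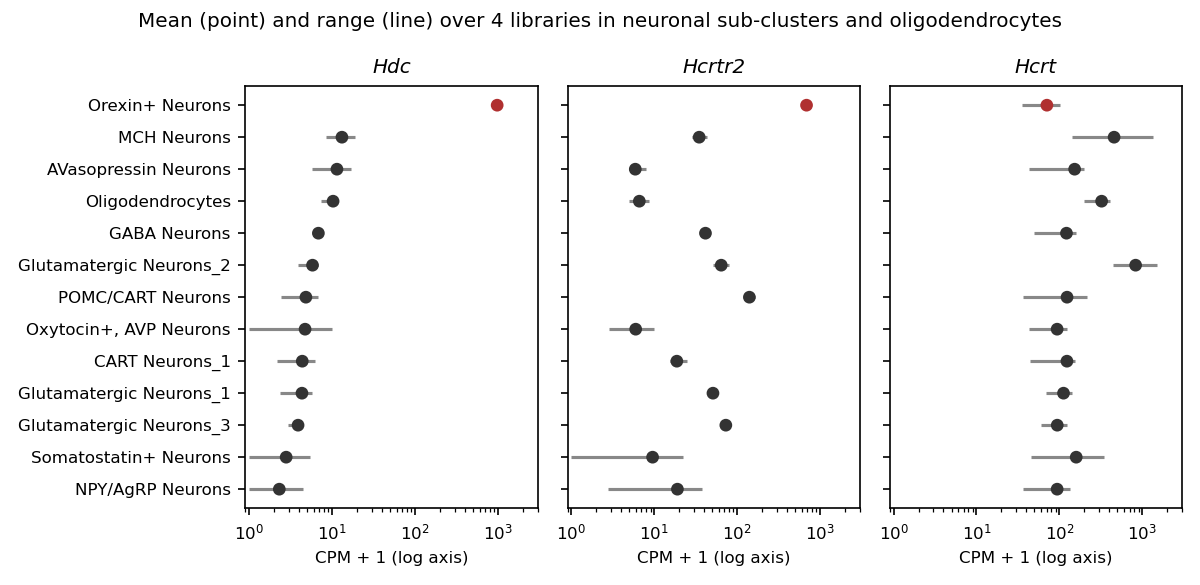
Level of Hdc, Hcrtr2 and Hcrt (CPM + 1, log axes) in oligodendrocytes and those 12 neuronal sub-clusters that no library represents by fewer than 10 nuclei, with the mean over 4 libraries as a point and the lowest to highest library as a line. The sub-cluster labelled Orexin+ (red) stands alone for Hdc at 974 CPM and for Hcrtr2 at 682 CPM, and lies at 69.6 CPM for Hcrt, where Glutamatergic Neurons_2 has 827 CPM.

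The genes of GABA transmission were split as well. Gad1, which encodes the GABA-synthesizing enzyme GAD67, was at 174, 254, 123 and 197 CPM, above the other neurons in every library (mean 69.8 CPM), and a UMI was present in 69.6% of members against 35.2% of GABA Neurons and 11.5% of oligodendrocytes. Gad2, the gene of the other GAD enzyme, was lower than in the other neurons in every library (32.2 ± 8.78 against 149 CPM). The vesicular GABA transporter gene Slc32a1 was at 0, 25.6, 2.33 and 9.25 CPM, against 149 in GABA Neurons, and its UMIs were in 5.73% of members, against 6.41% of oligodendrocytes. The vesicular glutamate transporter gene Slc17a6 was at 32.5 ± 7.26 CPM against 151, and was found in 15.9% of members, against 11.1% of oligodendrocytes. Of the 25 hypothalamic neuropeptides listed, 0 were higher and 21 lower than in the other neurons in all 4 libraries, against 8.45% and 33.5% of all genes. Their summed level was 855, 1263, 849 and 627 CPM against a mean of 3311 CPM in the other neurons, with the melanin-concentrating hormone gene Pmch as its most abundant member.

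**Figure D3:**
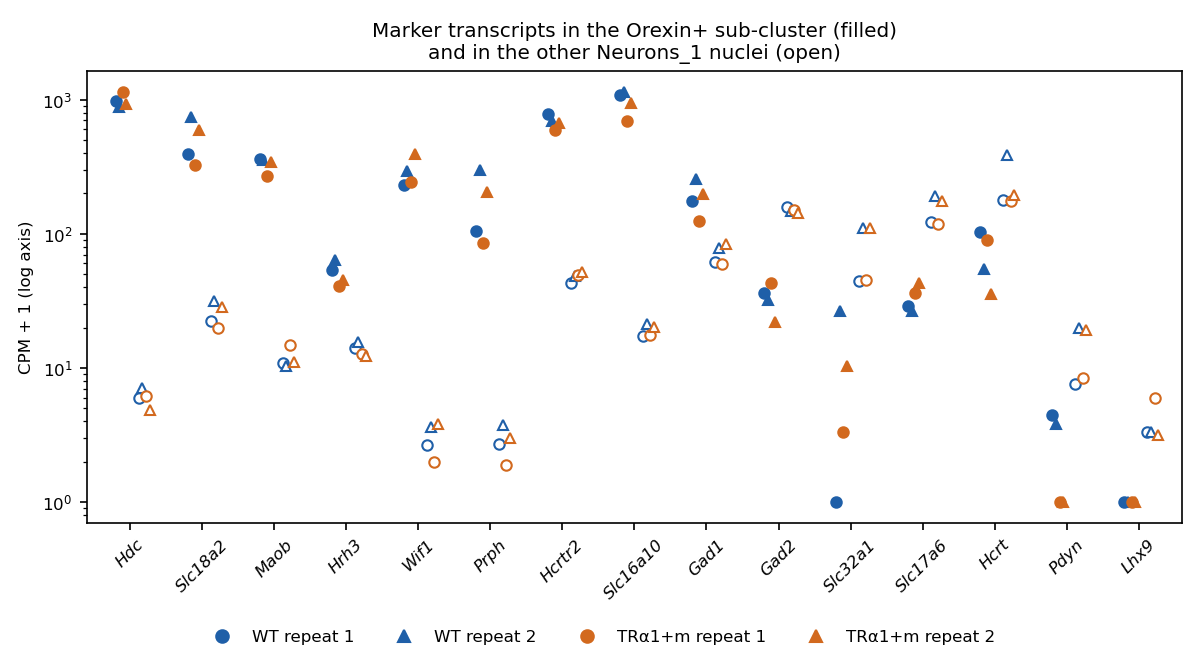
Level of 15 marker genes (CPM + 1, log axis) in each library, in the sub-cluster labelled Orexin+ (filled) and in the other Neurons_1 nuclei (open). WT is blue and TRα1+m orange, and circles are repeat 1 and triangles repeat 2. Hdc, Slc18a2, Maob, Hrh3, Wif1, Prph, Hcrtr2, Slc16a10 and Gad1 lie above the other neurons in every library, and Gad2, Slc32a1, Slc17a6, Hcrt, Pdyn and Lhx9 below.

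The leading genes were ranked by the log2 fold of their mean over that of the other neurons, with 1 CPM added to each, among genes of at least 50 CPM that were higher in every library. In order they were Hdc, Wif1, Slc26a4, Prph, Slc16a10, Sult3a2, Npl, Maob, Egflam, Fam107b, Kif6, Myo1e, Il6ra, Matn2, Slc18a2, Mapkapk3, Gpc4, Nox4, Olfml2b and Ism1, with means between 18.2 and 194 times those of the other neurons. Calcrl, Msrb2 and Hcrtr2 came just after them. Slc26a4, which encodes the anion exchanger pendrin, was at 112, 198, 142 and 134 CPM against 1.38 in the other neurons. The motor protein gene Kif6 was detected in 95.2% of members and 8.27% of other neurons, and Gpc4, the gene of a cell-surface heparan sulfate proteoglycan, in 87.2% and 8.06%. Ranked instead by the fold over the highest other neuronal sub-cluster, 12 of the 20 were shared, with Hdc, Wif1 and Prph at the top.

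Of the 19 listed thyroid hormone receptors, partners, transporters and deiodinases, 4 were higher than in the other neurons in every library and 5 lower. Of all genes 8.45% were higher and 33.5% lower, and of genes with at least 10 CPM in the sub-cluster 20.9% and 24.3%. Among the 19 listed genes, 10 had at least 10 CPM there, and the counts were not tested against these shares. Slc16a10, which encodes the aromatic amino acid and thyroid hormone transporter MCT10, was at 1078, 1141, 688 and 939 CPM in the sub-cluster, against 18.1 ± 2.06 in the other neurons and 32.0 in the next sub-cluster of Neurons_1. It was at 79.5 ± 79.8 CPM in the separate cluster Neurons_2, which has as few as 1 nucleus in a library. Its UMIs were found in 93.0% of members, 8.31% of GABA Neurons and 0.375% of oligodendrocytes. Slc7a8, the gene of the amino acid exchanger LAT2, was at 188, 296, 137 and 183 CPM against 22.6. It was not particular to these nuclei, since the cluster Microglia, Macrophages had 213 ± 36.8 CPM of Slc7a8. That cluster had 50.2 ± 5.61 CPM of Slc16a10. The transporter gene Slco1c1 was at 6.40 ± 12.8 CPM against 16.7, and Slc7a5 at 8.16 ± 4.02 against 10.6. The coactivator genes Ncoa2 and Ncoa3 were also higher in every library, and the deiodinase genes Dio1 and Dio3 had 0 UMIs. Thrb, which encodes thyroid hormone receptor β, was at 61.6 ± 4.07 CPM against 226, below the other neurons in every library, and Thra, the gene of the mutated receptor, was at 97.7, 112, 58.1 and 83.3 CPM against 96.2.

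The listed channel and receptor genes included some that were higher and some that were lower than in the other neurons. Of 23 pacemaker and voltage-gated channel genes 5 were higher and 10 lower in every library, of 31 peptide and modulator receptor genes 4 were higher and 19 lower, and of 17 genes of orexin receptor signalling 2 were higher and 9 lower. Of all genes 8.45% were higher and 33.5% lower, and of genes with at least 10 CPM in the sub-cluster 20.9% and 24.3%. These counts were not tested against those shares. Kcnd2, the gene of the A-type potassium channel Kv4.2, was at 7768, 7765, 6153 and 5680 CPM against 2199, and the GABA-A receptor genes Gabra2 and Gabrb1 were at 1045 ± 112 and 2761 ± 212 CPM against 461 and 1490. Gabra3, Gabra5, Gabrb2, Gabrg1 and Gabrg3 were lower in all 4 libraries, among 10 of 14 GABA-A receptor genes that were, against 33.5% of all genes and 24.3% of genes with at least 10 CPM in the sub-cluster. The receptor gene for galanin, Galr1, was at 41.6 ± 9.92 CPM against 8.43. Of the signalling genes, Gnaq (the Gq subunit) and Slc8a1 (a sodium-calcium exchanger) were higher in every library, and the channel genes Trpc4, Trpc5 and Trpc6 lower. Of 35 regional transcription factors 3 were higher in every library (Isl1, Tbx3 and Bsx), a share near the 8.45% of all genes, and 24 were lower, against 33.5% of all genes. Isl1 was at 137 ± 22.8 CPM against 29.8.

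Markers of most other cell types summed to about the level in the other neurons or below it. The 5 astrocyte markers summed to 157, 188, 419 and 94.8 CPM, against 315, 262, 418 and 194 in the other neurons, with Slc1a2 as the most abundant. The 5 oligodendrocyte markers summed to 344 CPM on average against 465, with Mbp as the most abundant, and the 4 endothelial markers to 11.2 against 63.1 CPM. Pdgfrb, a pericyte gene, was an exception, at 87.2, 27.0, 88.4 and 20.8 CPM against 3.46, while the other mural genes Rgs5 and Vtn were below the other neurons in every library. All 6 pan-neuronal genes were present, with Syt1 at 3819 ± 316 CPM against 2192.

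Between genotypes, 3 genes passed in the sub-cluster. Cntnap5a fell in TRα1+m nuclei, and Trpm3 and AC149090.1 rose. They were 0.043% of the 6973 genes tested (0.0287% higher and 0.0143% lower). The test was edgeR's two-sided quasi-likelihood F-test on summed UMIs, with a threshold of 0.05 after Benjamini-Hochberg adjustment. An unadjusted p under 0.05 was found for 218 genes (3.13%). Across all genes tested the log2 fold change had a median of -0.000201. In bulk sums of this kind, a change in the make-up of the sub-cluster and a change within its nuclei cannot be told apart.

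Cntnap5a (chr1:115684756-116587323, plus strand, GRCm38) encodes a neuronal membrane protein of the contactin-associated family. It was at 1092 and 1151 CPM in the WT libraries and at 430 and 356 CPM in the TRα1+m libraries. The groups did not overlap, and the gap between them was many times the difference within either. The mean fell from 1122 ± 41.6 to 393 ± 52.4 CPM (SD, n = 2), a log2 fold change of -1.55 with a standard error of 0.164 and an adjusted p of 0.000832. The median count per nucleus was 8 and 8.5 UMIs in WT and 2 in both mutant libraries, and after thinning to 900 UMIs a Cntnap5a UMI was found in 61.1% and 55.0% of WT nuclei and in 41.0% and 16.0% of TRα1+m nuclei.

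The fall was larger in the sub-cluster than in the neurons around it. In the other Neurons_1 nuclei Cntnap5a was at 1093 and 1050 CPM in WT and 1059 and 974 CPM in TRα1+m, close to the WT level of the sub-cluster in every library. The genotype effect differed between the sub-cluster and the other neurons by -1.43 on the log2 scale (standard error 0.163). The adjusted p was 5.02e-14 by the edgeR interaction, and 0.000158 with bias-adjusted deviances, a later form of the same fit. Elsewhere among neurons, over 11 sub-clusters of 10 or more nuclei per library, the log2 ratio of mutant to WT means ranged from -0.55 in Oxytocin+, AVP Neurons to 0.16 in POMC/CART Neurons, against -1.51 in the sub-cluster, and in 3 of the 11 both mutant libraries were below both WT libraries. Within the same gene family Cntnap5b was at 10.5 and 25.6 CPM in WT and 97.7 and 71.7 CPM in TRα1+m, which did not pass (log2 fold change 2.02, adjusted p 0.368; 8.65e-05 with the repeat as a block), and Cntnap5c was at 112, 99.5, 158 and 85.6 CPM.

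Trpm3 (chr19:22139046-22995410, plus strand, GRCm38) encodes a calcium-permeable cation channel of the TRP family. Of the 2 windows listed for its starts, the downstream one, chr19:22447958-22448257, held the motif AGGTCA on the other strand, in capitals here. The upstream one did not, and of all 32851 promoters 16.3% held the motif.
Trpm3: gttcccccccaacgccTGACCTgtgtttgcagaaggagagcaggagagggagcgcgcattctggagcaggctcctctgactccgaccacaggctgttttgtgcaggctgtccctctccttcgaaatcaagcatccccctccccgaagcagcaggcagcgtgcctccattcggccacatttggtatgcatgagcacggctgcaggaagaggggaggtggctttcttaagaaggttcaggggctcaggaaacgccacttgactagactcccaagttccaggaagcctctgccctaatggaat
Trpm3 was at 112 and 99.5 CPM in WT and at 388 and 261 CPM in TRα1+m. The groups did not overlap, and the mutant libraries differed from each other more than the WT libraries did. The mean rose from 106 ± 8.62 to 325 ± 89.8 CPM, a log2 fold change of 1.60 (standard error 0.256, adjusted p 0.0394). A Trpm3 UMI was found in 30.6% and 26.3% of WT nuclei and in 52.5% and 46.0% of mutant nuclei, and the 3 nuclei richest in it held 62.5%, 54.3%, 37.1% and 52.2% of its UMIs. In the other neurons Trpm3 was at 946, 759, 975 and 731 CPM. The genotype effect differed between them and the sub-cluster by 1.60 on the log2 scale (standard error 0.211). The adjusted p was 3.18e-10 by the edgeR interaction and 0.000667 with bias-adjusted deviances.

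Trpm3 was at 7866 CPM in WT astrocytes and at 164 CPM in WT oligodendrocytes. The astrocyte marker sum of the sub-cluster was highest in TRα1+m repeat 1, at 419 CPM, and lowest in TRα1+m repeat 2, at 94.8 CPM. The part of glial RNA in the rise of Trpm3 was not tested. With the 164 nuclei that had UMIs of fewer than 5 of 28 glial and vascular genes, the log2 fold change was 1.38 and the adjusted p 0.259. Without WT repeat 2 the adjusted p was 0.0509, with equal numbers of nuclei per library it was 0.0711, and it ranged from 9.52e-11 to 0.70 over all alternatives.

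AC149090.1, a gene on an unplaced scaffold that resembles the phosphatidylserine decarboxylase gene Pisd, was at 223 and 207 CPM in WT and at 670 and 467 CPM in TRα1+m. The mean rose from 215 ± 11.2 to 568 ± 143 CPM (log2 fold change 1.37, standard error 0.216, adjusted p 0.0394), with both mutant libraries above both WT libraries, and an adjusted p of 0.0733 with equal numbers of nuclei per library. It belongs to the genes that the study named on these samples, so its direction is not independent evidence, and reads of near-identical copies may be shared with it. Pisd itself was at 59.3, 28.4, 41.9 and 25.4 CPM. The rise was not particular to these nuclei: AC149090.1 was higher in both mutant libraries than in both WT libraries in 10 of the 11 other neuronal sub-clusters, and the interaction was 0.22 (adjusted p 1).

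**Figure D4:**
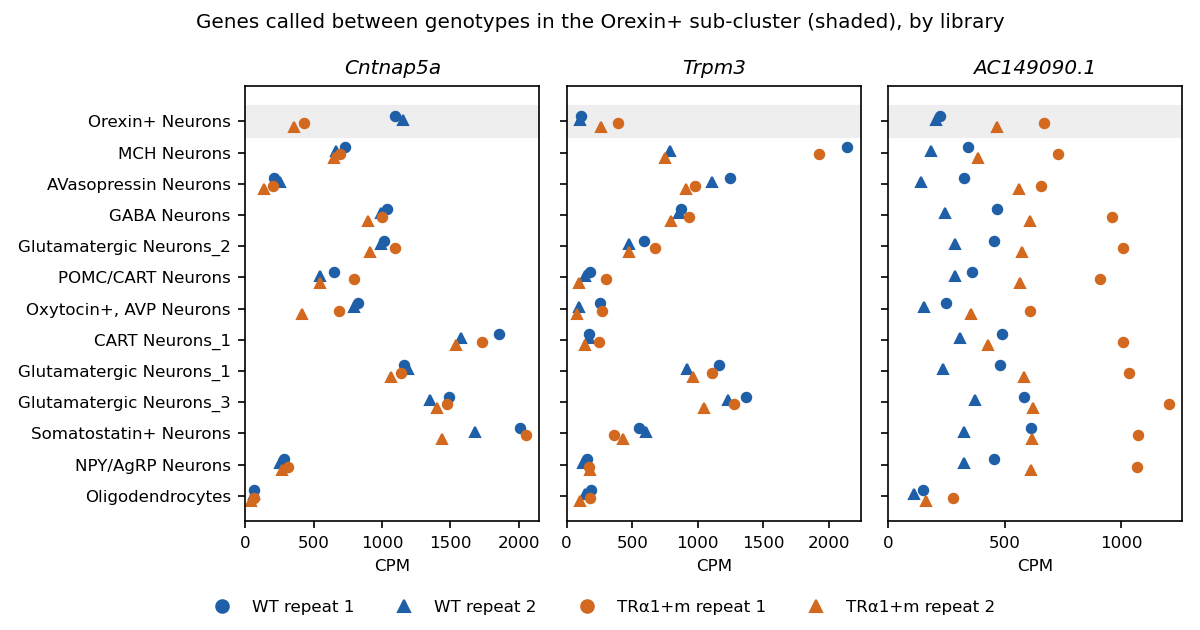
Level (CPM, linear axes from 0) of Cntnap5a, Trpm3 and AC149090.1 in each library, by neuronal sub-cluster and in oligodendrocytes. WT is blue and TRα1+m orange, circles are repeat 1 and triangles repeat 2, and the shaded row is the sub-cluster labelled Orexin+. There Cntnap5a fell from 1122 to 393 CPM in the mean while in the other neuronal rows the log2 ratio of the means lay between -0.55 and 0.16, and AC149090.1 was higher in the mutant in nearly every row.

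The next 7 genes by p did not pass. The gene of the dystrophin-associated protein α-dystrobrevin, Dtna, was at 338 and 264 CPM in WT and 147 and 146 CPM in TRα1+m (adjusted p 0.368). Lingo2, which encodes a neuronal leucine-rich repeat protein, was at 551 and 584 CPM in WT and 1026 and 914 CPM in TRα1+m (adjusted p 0.368). The log2 fold changes of the others were 2.02 for Cntnap5b, -0.82 for Sgcz, 1.62 for Sst, -0.68 for Ncam2 and 1.23 for Alk. For each of these 7 genes both mutant libraries lay on the same side of both WT libraries, as for 30.7% of all genes tested.

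With the experimental repeat as a block, which pairs the libraries prepared together and leaves 1 residual degree of freedom, 41 genes passed (0.588%), 13 higher (0.186%) and 28 lower (0.402%) in TRα1+m. They included the 3 genes above, each of the 7 that followed them, and Slc16a10 (log2 fold change -0.49, adjusted p 0.00915). DESeq2 called Cntnap5a alone, with or without the block. The repeats themselves differed more than the genotypes, with 293 genes passing (4.2%), 134 higher (1.92%) and 159 lower (2.28%) in repeat 2, by the same test with genotype in the model. Among them were Slc18a2 (log2 fold change 0.83 in repeat 2, adjusted p 3.48e-06), Prph (1.33, adjusted p 1.86e-06) and Hcrt (-1.15, adjusted p 0.00774).

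Hdc, Hcrtr2 and the leading genes did not pass between genotypes without the block. Hdc was at 923 ± 71.5 CPM in WT and 1025 ± 145 in TRα1+m (log2 fold change 0.11, standard error 0.160), and Hcrtr2 at 732 ± 60.4 and 633 ± 53.3 (-0.25, standard error 0.161). The log2 fold change of Hcrtr2 ranged from -0.38 to -0.14 when a library was left out. Of the 20 leading genes all were tested and 0 passed (0.043% of all genes did), with a median log2 fold change of -0.19. With the repeat as a block 2 of them passed (0.588% of all genes did), Slc16a10 and the sulfotransferase gene Sult3a2 (log2 fold change -1.36, adjusted p 0.00398). Sult3a2 was at 154 and 55.4 CPM in WT and at 46.5 and 32.4 CPM in TRα1+m. Its log2 fold change without the block was -1.33, and it moved to -0.50 without WT repeat 1 and to -2.04 without WT repeat 2. Of the 8 tested histaminergic genes 0 passed, with a median of -0.26. Thra, at 105 ± 10.3 CPM in WT and 70.7 ± 17.8 in TRα1+m, did not pass (log2 fold change -0.62, standard error 0.309), nor did Thrb (-0.01, standard error 0.337). Of the 10 tested genes of thyroid hormone receptors, partners and transport 0 passed (median -0.16), and 1 of them, Slc16a10, passed with the block. Of the 2 tested thyroid hormone response genes 0 passed.

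Among the 7 genes the study named between genotypes in neurons, AC149090.1 alone passed here, a list chosen on these same samples. Grm8 (a metabotropic glutamate receptor) was at 468 and 640 CPM in WT and 884 and 696 CPM in TRα1+m. Lrrtm4 had a log2 fold change of -0.33 and Oxt of -0.27, with Oxt at 171 and 144 CPM in repeat 1 and at 31.3 and 6.94 CPM in repeat 2. The 11 tested mitochondrially encoded genes had a median log2 fold change of -0.63. Of them 0 passed without the block and 6 with it (0.588% of all genes did). Between repeats, 6 were higher in repeat 2 than in repeat 1 (1.92% of all genes). The 13 listed mitochondrial genes were also lower in sum in the other neurons, at 9402 and 11676 CPM in WT and 8335 and 7636 CPM in TRα1+m. For the interaction 0 of these 13 passed (0.0818% of all genes did). mt-Co3 was at 1902 and 3067 CPM in WT and 1556 and 1755 CPM in TRα1+m. The remaining lists for neurons and other cell types held no gene that passed.

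In the other Neurons_1 nuclei 0 of 19894 genes (0%) passed between genotypes with edgeR, and 188 had an unadjusted p under 0.05. Beyond Cntnap5a and Trpm3, a further 13 genes differed in genotype effect between the sub-cluster and the other neurons, 15 in all of 18339 tested (0.0818%), 11 with a positive (0.06%) and 4 with a negative (0.0218%) interaction, where 660 genes (3.6%) had an unadjusted p under 0.05. Cntnap5b had an interaction of 2.08 (standard error 0.354, adjusted p 1.92e-05), the long non-coding RNA Gm32647 of 1.57, Lingo2 of 0.87, Sst of 1.77, Cdh18 (a cadherin) of 0.74, and Kcnq5 (an M-type potassium channel) of 1.12. Sox2ot, a long non-coding RNA that overlaps Sox2, had -0.87. Pomc, with -3.12, rested on WT repeat 2, where it was at 161 CPM, against 24.4 CPM in WT repeat 1, 4.65 and 13.9 CPM in TRα1+m, and its adjusted p without that library was 0.976 (0.0512 without TRα1+m repeat 2). Single libraries also moved other interactions by more than 1.5 times, to 0.50 for Sst without WT repeat 2, 0.72 for Gm32647 without TRα1+m repeat 2 and 0.39 for Kcnq5 without TRα1+m repeat 1, none of which then passed, and to 3.20 for Cntnap5b without WT repeat 2, which did. Without TRα1+m repeat 1 the calls of Cntnap5b (adjusted p 0.100), Lingo2 (0.864), Sst (0.528), Sox2ot (1) and Cdh18 (0.459) were lost. With bias-adjusted deviances, a later form of the same fit, 5 genes passed, namely Cntnap5a, Trpm3, Pomc, Cntnap5b and Lingo2.

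All 11 genes with a positive interaction were at a lower level in the sub-cluster than in the other neurons, in the WT means and in the mutant means, as were 60.6% of all genes tested in the WT means and 57.7% in the mutant means. Lingo2, for example, was at 568 CPM in WT and 970 CPM in TRα1+m in the sub-cluster, against 3731 and 3523 CPM in the other neurons, and Cntnap5b at 18.0 and 84.7 CPM against 473 and 439 CPM. The 3 nuclei richest in Cntnap5b held between 66.7% and 100% of its UMIs in a library. The part of RNA or nuclei of other neurons in these differences was not tested. Of the 4 genes with a negative interaction, 1 (Ptprd) was below the other neurons in the WT means and all 4 were in the mutant means.

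**Figure D5:**
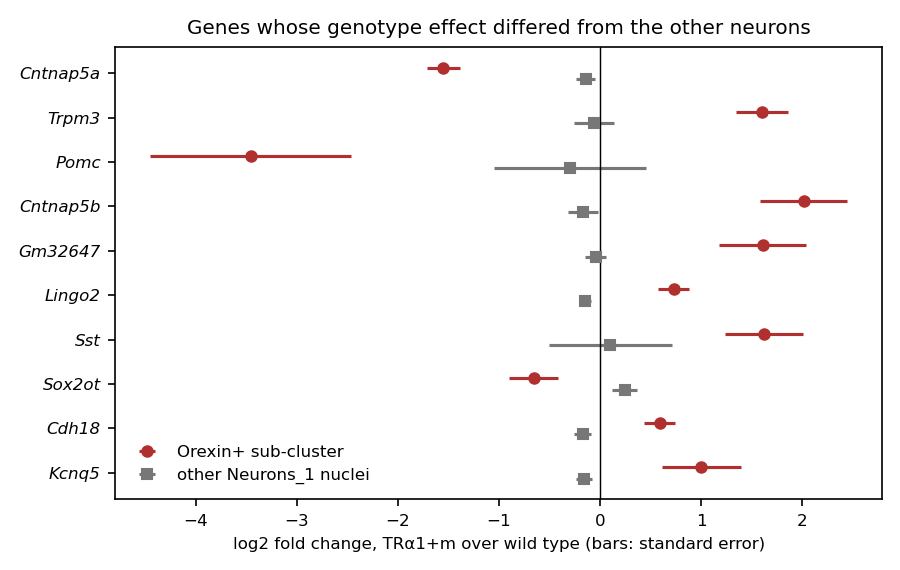
Log2 fold change of TRα1+m over WT (horizontal axis, bars are standard errors from edgeR) for the 10 genes with the smallest p of the interaction, in the sub-cluster labelled Orexin+ (red circles) and in the other Neurons_1 nuclei (grey squares). The other neurons lie between -0.30 for Pomc and 0.24 for Sox2ot, and the sub-cluster lies apart from them, at -1.55 for Cntnap5a and 1.60 for Trpm3.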

How the data were processed

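The deposited files hold raw UMI counts per gene and nucleus, which the authors made with Cell Ranger 5.0.1 (reads in introns included, mm10 reference, build GRCm38). A deposited annotation gives, as text, the genotype, repeat and cluster of each nucleus the authors kept (at least 900 counts and 700 features, at most 5% mitochondrial reads, doublet score below 0.18) and clustered in Seurat. Clusters were used as deposited.

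UMIs of the members were summed per library and tested in edgeR 4.0.16 (R 4.3.3) with filterByExpr, TMM factors and robust quasi-likelihood F-tests. The interaction was fitted on the sums of the sub-cluster and of the other Neurons_1 nuclei, with library as a term. DESeq2 1.42.0 was an alternative, and summaries used Python 3.11.15. By the study's design the repeats pair the libraries, and the repeat differences of the genotypes correlated across 6973 genes (r = 0.313). The comparison of repeats was added after seeing the data.

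The members, gene lists and tests were chosen with earlier results of these data known. Named genes came from the lists, the 20 leading genes, the genes passing between genotypes with the next by p up to 10, the 10 interaction genes of smallest p, and the genes the study names. Pisd, Cntnap5c and Ptprd were added after their values were seen. A few genes of the lists are not reported here by name.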

Additional observations from a re-analysis of the deposited data

Results flagged for a closer look

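The genotype effect differed between the sub-cluster labelled Orexin+ and the other Neurons_1 nuclei for 15 genes by edgeR's test of the interaction. The 10 with the smallest p had interactions, on the log2 scale, of -1.43 for Cntnap5a, 1.60 for Trpm3, -3.12 for Pomc, 2.08 for Cntnap5b, 1.57 for Gm32647, 0.87 for Lingo2, 1.77 for Sst, -0.87 for Sox2ot, 0.74 for Cdh18 and 1.12 for Kcnq5. Cntnap5a and Trpm3 passed without any single library, with highest adjusted p of 5.90e-06 and 0.00129, whereas each of the other 8 lost its call without at least 1 library.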

How the results depend on the processing

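The 3 genes passing between genotypes became 1 with DESeq2, 1 with equal numbers of nuclei per library, 11 with no filter on low counts, 41 with the replicate block, 1 with the block in DESeq2, 50 with the block and bias-adjusted deviances, and 4 to 17 when a library was left out, where the spread of a lone library is taken from the other genotype. Cntnap5a passed in all 15 fits, AC149090.1 in 11 of 15 and Trpm3 in 9 of 14. The 15 interaction genes became 5 with bias-adjusted deviances, and 5 to 18 when a library was left out. The blocked and bias-adjusted fits beyond the planned block, and the limit of 5 glial genes, were chosen after seeing the data.

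The share difference of 0.00817 percentage points turned to -0.0288 as a share of all nuclei, and lay between -0.261 and 0.277 when a library was left out. With nuclei holding UMIs of 2 or more glial or vascular genes left out (21 nuclei remained), Hdc was at 1196, Hcrtr2 at 438 and Hcrt at 122 CPM. Thinning each nucleus to 900 UMIs gave shares with a UMI of 64.8% for Hdc, 44.1% for Hcrtr2, 4.85% for Hcrt, 19.8% for Gad1 and 2.20% for Slc17a6, and requiring 2 UMIs gave 96.9%, 77.1%, 10.1%, 39.2% and 4.85%. Ranking by the fold over the highest other sub-cluster kept 12 of the 20 leading genes.

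Among the 31 genes recomputed under every alternative, leaving out a library turned the sign of 9 genotype log2 fold changes that did not pass with all libraries, as it did for 9 of the other named genes (Cntnap5c, Pisd, Slc26a4, Npl, Kif6, Il6ra, Nox4, Olfml2b and Ism1). The 9 of the 31 ranged from -0.076 to 0.074 for Thrb, -1.09 to 0.25 for mt-Atp6, -3.70 to 1.27 for Oxt, -0.083 to 0.27 for Hdc, -0.84 to 0.14 for Slc18a2, -0.15 to 0.48 for Wif1, -1.36 to 0.36 for Prph, -0.28 to 0.53 for Gal and -1.14 to 0.26 for Hcrt. Of these, Oxt passed without TRα1+m replicate 1 (-3.70, adjusted p 3.26e-05), mt-Atp6 without WT replicate 1 (-1.04, 0.000254) and Prph without TRα1+m replicate 2 (-1.36, 0.0480). Calls were also gained by mt-Co3 without WT replicate 1 (-0.90, 0.000757), Cntnap5b without TRα1+m replicate 2 (2.23, 0.00646) and Sst without TRα1+m replicate 1 (1.83, 0.0219). The causes of these changes were not tested. With 2 pools per genotype and 36 to 80 nuclei per library, depth limits low genes most. Without the block, the p-values between genotypes rest on the spread between pools, estimated with help from the other genes. In the interaction and in the fits with the block, library or repeat is a term. Those p-values rest on the spread left over, and do not measure the whole spread between pools.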
